A study of Mus musculus with 4 samples.

Results

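The cytoplasmic ribosomal protein genes of the mouse and their testis paralogs were followed in testis RNA of Piwil1-/- and Piwil1+/- mice. A gene was a member if its symbol was Rpl or Rps followed by digits, with or without one of the suffixes A, X, L, a, l or l1, or if it was Rplp0, Rplp1, Rplp2 or Rpsa. S6 kinase genes and copies with -ps in the symbol were left out. The rule took 82 of the 22808 genes in the expression table, 52 of the large subunit and 30 of the small subunit, and it used no measured value. Another 3 symbols that it takes in the gene name reference, Rps12l1, Rps4l and Rpl32l, were not analysed here.

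Testes were taken at postnatal day 23, when the first wave of spermatogenesis has reached late meiosis and is making its first round spermatids. One library of total RNA was made from Piwil1-/- testes, which lack both copies of the gene of the PIWI protein PIWIL1 (MIWI), and 1 from Piwil1+/- testes, which keep 1 copy and are not wild type. Ribosomal RNA was removed and the libraries were directional; strain, littermate status and the number of animals are not given in the labels. Each genotype has a single library, so the differences below are sizes between 2 libraries, with no p-value and no measure of the spread between animals.

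A cytoplasmic ribosome holds about one copy of each ribosomal protein, so cells normally make these proteins in matched amounts from many scattered genes. Most of their mRNAs begin with a C followed by a run of pyrimidines, the terminal oligopyrimidine (TOP) tract, through which mTOR and LARP1 control their translation. The testis is a special case. The X chromosome is silenced in pachytene spermatocytes, and X-linked ribosomal protein genes have autosomal paralogs expressed in male germ cells. In the mouse Rpl10l, a retrogene of X-linked Rpl10, is needed for male meiosis, and Rpl39l, a relative of X-linked Rpl39, is needed for normal sperm formation. RPL10 completes large subunit maturation and lies close to the peptidyl transferase centre, and RPL39 lines the tunnel through which the nascent chain leaves.

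The starts of both testis paralogs and their parents are shown first, with those of 4 other members picked for their long runs, because a TOP tract lies at the start of an mRNA. These are annotated starts, and the starts used in these testes were not measured. Each line gives 25 bases before and 25 bases from a RefSeq start onwards, 5′ to 3′ on the strand of the gene. Capitals mark the longest run of C and T between 10 bases before and 20 bases after the start.
Rpl10l: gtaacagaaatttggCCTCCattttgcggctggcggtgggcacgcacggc
Rpl10: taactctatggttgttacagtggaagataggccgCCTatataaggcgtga
Rpl39l: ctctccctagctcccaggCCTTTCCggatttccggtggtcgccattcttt
Rpl39: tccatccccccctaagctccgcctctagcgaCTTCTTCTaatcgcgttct
Rps6: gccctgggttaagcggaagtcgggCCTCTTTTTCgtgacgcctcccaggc
Rps18: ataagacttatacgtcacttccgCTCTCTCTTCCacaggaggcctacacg
Rpl27a: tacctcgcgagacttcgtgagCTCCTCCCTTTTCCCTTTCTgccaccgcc
Rpl38: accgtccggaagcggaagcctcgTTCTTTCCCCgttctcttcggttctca
In GRCm38.p6 these windows are chr12:66284377-66284426 on the minus strand for Rpl10l, chrX:74270791-74270840 on the plus strand for Rpl10, chr16:10170203-10170252 on the plus strand for Rpl39l and chrX:37085198-37085247 on the minus strand for Rpl39. Those of the others are chr4:86857343-86857392 on the minus strand for Rps6, chr17:33955641-33955690 on the minus strand for Rps18, chr7:109519170-109519219 on the plus strand for Rpl27a and chr11:114668555-114668604 on the plus strand for Rpl38. Rps6, Rps18, Rpl27a and Rpl38 have runs of 10, 11, 20 and 10 pyrimidines that span the start. The longest runs near the starts of Rpl10l and Rpl10 have 5 and 3 bases. Rpl39l has a run of 7 bases that ends before the start shown, and Rpl39 a run of 8 that begins 6 bases after its start. The RefSeq genes of Rpl39l and Rpl38 begin upstream of the starts shown, at 10170197 and 114667818, so other starts are possible for both.

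RefSeq promoter windows, from 250 bases before to 50 after a start, were at hand for 61 of the 82 members, with 73 windows in all. A run of 8 or more C or T near the start was found in 24 of the 73 member windows (32.9%), in 11.2% of the 32851 windows of all genes and in 11.04% of the 9983 windows of genes expressed in these testes. The start itself was a C in 28.8% of member windows, 16.3% of all windows and 14.2% of those of expressed genes. In the whole window on either strand, CCGGAAG, letters that ETS-family factors such as GABP can bind, stood in 35.6% of member windows, 8.86% of all windows and 18.6% of those of expressed genes. For AAGATGG, letters that YY1 can bind and that can overlap the end of the ETS letters, the same shares were 16.4%, 6.34% and 7.64%. The TATA box letters TATAAA stood in 9.59%, 13.6% and 7.27%, and the GC box GGGCGG in 58.9%, 35.7% and 59.3%. A match describes the letters only.

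Levels of members with and without the run near the start were set side by side. The 24 members with a window holding it had a median of 23.97 RPKM in Piwil1-/- and 21.8 RPKM in Piwil1+/-. The 37 members whose windows lacked it had medians of 21.5 RPKM in Piwil1-/- and 17.0 RPKM in Piwil1+/-. Median differences between genotypes on the log2 (RPKM + 1) scale, Piwil1-/- minus Piwil1+/-, were taken over members at 1 RPKM or more. They were 0.06 for 23 members with the run and 0.03 for 34 without it. RPKM is reads per kilobase of gene, scaled to the reads of the library. Levels of different genes are set side by side here, but the gene lengths and the counting of shared reads behind them are not given.

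Facts of the libraries are few. The Piwil1-/- library counted 100254357 reads and the Piwil1+/- library 104014686 reads, by the scale of their RPKM values. Piwil1 itself (chromosome 5, 128736071 to 128755474) was listed at 0 RPKM in Piwil1-/- and stood at 26.2 RPKM in Piwil1+/-. Markers of the tissue were present: the 6 pachytene spermatocyte markers summed to 2043 RPKM in Piwil1-/- and 2174 RPKM in Piwil1+/-. Most of both sums was Ldhc, with 1479 RPKM in Piwil1-/- and 1638 RPKM in Piwil1+/-, and 3 of the 6 were higher and 3 lower in Piwil1-/-. The 8 elongating spermatid markers summed to 39.4 RPKM in Piwil1-/- and 125 RPKM in Piwil1+/-, and all 8 were lower in Piwil1-/-, where Tnp1, Prm1 and Prm2 were listed at 0 RPKM. The 6 round spermatid markers, all lower in Piwil1-/-, summed to 83.9 RPKM in Piwil1-/- and 143 RPKM in Piwil1+/-. In whole testis, fewer cells of a type and less RNA per cell cannot be told apart, and the part of cell makeup in the differences below was not tested.

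Ribosomal protein mRNAs took a nearly equal place in both testes. The 82 members summed to 2749 RPKM in Piwil1-/-, 1.573% of the table's total, and to 2655 RPKM in Piwil1+/-, 1.4995% of it, a ratio of 1.04. The median member had 27.3 RPKM in Piwil1-/- and 24.7 RPKM in Piwil1+/-. Large subunit members had medians of 22.5 RPKM in Piwil1-/- and 19.4 RPKM in Piwil1+/-, and small subunit members 33.0 and 34.8 RPKM. The order of the members by level was almost the same in both libraries (Spearman's rho 0.995 over 82 genes, a description across genes, which are not replicates and share each library).

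Levels within the set spread widely in this table although the proteins are used in nearly equal numbers. The part of read counting in this spread was not tested. By the mean of both libraries, 18 members stood at 50 RPKM or more, 29 between 20 and 50, 11 between 10 and 20, 19 between 1 and 10 and 5 under 1. The 6 highest were Rpl7, Rplp0, Rpl23, Rpl26, Rps7 and Rpl4. Rpl7 had 121.3 RPKM in Piwil1-/- and 120.8 RPKM in Piwil1+/-. Rplp0, the base of the ribosomal stalk that recruits elongation factors, had 120.1 RPKM in Piwil1-/- and 115 RPKM in Piwil1+/-. Rpl4, whose long loop reaches into the exit tunnel, had 101 RPKM in Piwil1-/- and 90.9 RPKM in Piwil1+/-. Rpl23, Rpl26 and Rps7 lay between 97.6 and 102 RPKM in both libraries.

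Stalk partners did not share the level of Rplp0. Rplp1, which pairs with Rplp2 on the stalk, had 4.08 RPKM in Piwil1-/- and 3.46 RPKM in Piwil1+/-. Rplp2 had 4.90 RPKM in Piwil1-/- and 3.34 RPKM in Piwil1+/-. Rplp0 was 29.5 times Rplp1 in Piwil1-/- and 33.2 times in Piwil1+/-, although the ribosome carries more P1 and P2 than P0. How reads were counted is not given, so this gap may not hold in the cells, which was not tested. Partners of the 5S ribonucleoprotein, the particle that also restrains MDM2 when ribosome assembly fails, were closer. Rpl5 had 82.1 RPKM in Piwil1-/- and 77.9 RPKM in Piwil1+/-, and Rpl11 had 45.1 and 46.5 RPKM. The stalk and 5S genes, like Rpl7a and Rps27a further on, were singled out for their roles after their values were seen.

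**Figure D1:**
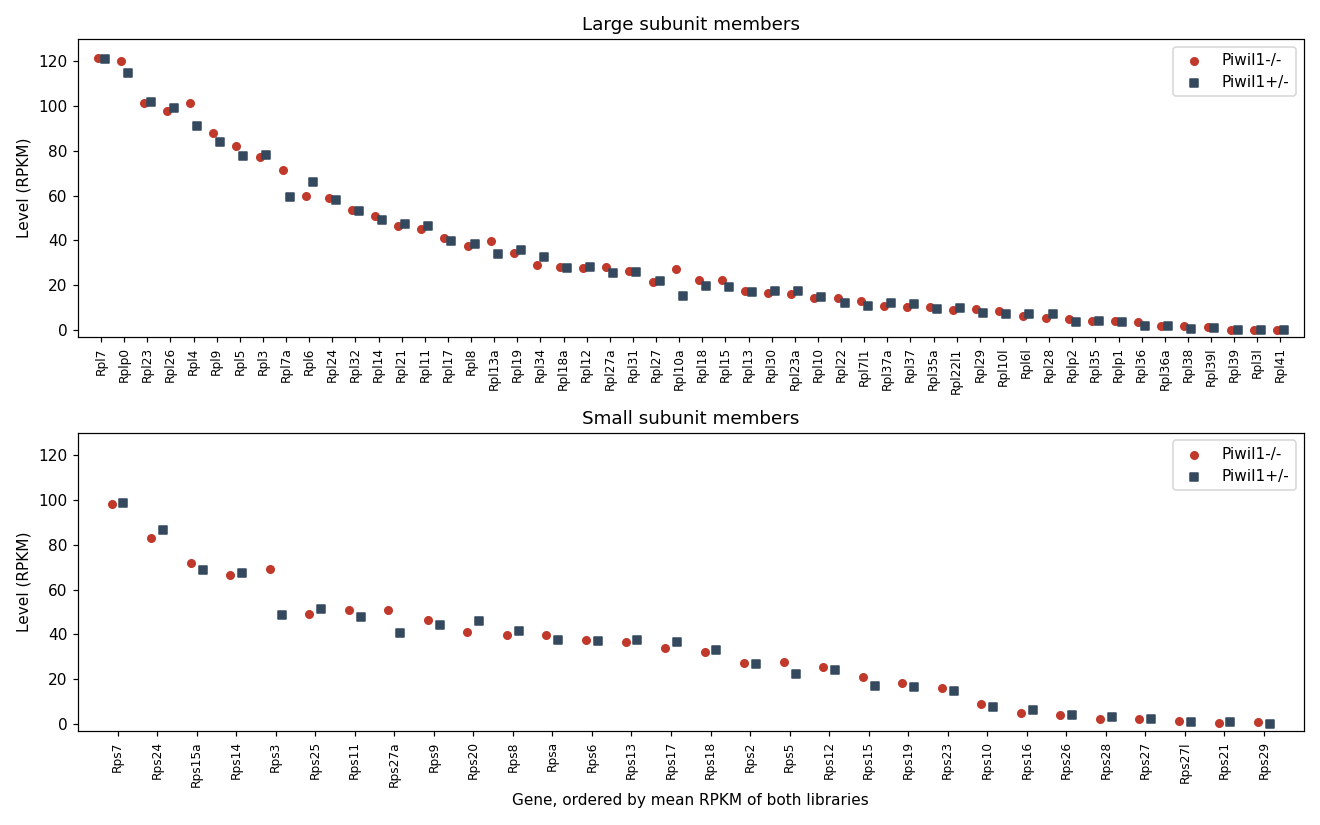
RPKM of every member in Piwil1-/- (red circles, left) and Piwil1+/- (dark squares, right), 1 library each, with large subunit members above and small subunit members below, ordered by mean RPKM. Most pairs of points lie close together, and Rpl10a at 27.2 against 14.99 RPKM and Rps3 at 69.3 against 48.7 RPKM are among the widest gaps.

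Members at the low end included genes of the shortest ribosomal proteins. Rpl41, which encodes the smallest one, was listed at 0 RPKM in both libraries. Rpl39 had 0.128 RPKM in Piwil1-/- and 0.0616 RPKM in Piwil1+/-, values that fit at least 2 reads and 1 read. Rps29 had 0.700 RPKM in Piwil1-/- and 0.169 RPKM in Piwil1+/-, from at least 4 reads and 1 read, and Rps21 had 0.435 and 0.763 RPKM, from at least 11 and 20 reads. These genes are expressed in every cell as far as is known, so a value at or near 0 may not hold in the cells, which was not tested. Just above 1 RPKM stood Rpl39l, Rpl38, Rps27l and Rpl36a, a member on the X chromosome with 1.60 RPKM in Piwil1-/- and 1.65 RPKM in Piwil1+/-.

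Of the 3 X-linked members, Rpl10 was the best expressed, and Rps4x, an X-linked small subunit gene whose symbol the rule misses, had 25.7 RPKM in Piwil1-/- and 24.5 RPKM in Piwil1+/-. Rpl10, Rpl36a and Rpl39 together summed to 15.9 RPKM in Piwil1-/- and 16.6 RPKM in Piwil1+/-. Spermatogonia and somatic cells of the testis keep an active X chromosome, and the share of X-linked mRNA from each cell type was not measured.

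The testis paralog Rpl10l stood below its parent in both genotypes. Rpl10l (chromosome 12, 66283379 to 66284401) had 8.58 RPKM in Piwil1-/- and 7.02 RPKM in Piwil1+/-, and Rpl10 (chromosome X, 74270816 to 74273135) had 14.1 and 14.9 RPKM. On the log2 (RPKM + 1) scale Rpl10l minus Rpl10 was −0.66 in Piwil1-/- and −0.99 in Piwil1+/-. As a plain ratio, Rpl10l was 0.607 of Rpl10 in Piwil1-/- (95% counting interval 0.521 to 0.704) and 0.471 of it in Piwil1+/- (0.399 to 0.553). Rpl10l thus gave 37.8% of the summed RPKM of the pair in Piwil1-/- and 32.0% in Piwil1+/-. The smallest gene lengths that fit the values were 215 bases for Rpl10l and 2393 bases for Rpl10, and true lengths may be whole multiples of these. Whether the 2 genes were scaled by like lengths was not tested, so these are shares of RPKM and not of mRNA molecules. Counting intervals here are exact binomial ones, computed from the lowest whole reads with which both RPKM values can be written. True read numbers may be a whole multiple of these, so the intervals are the widest the values allow, and one that holds 1 does not show that counting error could make the difference. They cover counting error only, since amplified copies are not independent molecules, and say nothing of the spread between animals.

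Between genotypes both genes differed little. Rpl10l differed by 0.26 on the log2 (RPKM + 1) scale, Piwil1-/- minus Piwil1+/-, and by 1.22-fold in RPKM (0.983 to 1.52, at least 185 and 157 reads). Rpl10 was 0.949 times as high in Piwil1-/- as in Piwil1+/- (0.906 to 0.995, at least 3392 and 3708 reads). A processed copy, Rpl10-ps3, had 4.67 RPKM in Piwil1-/- and 4.80 RPKM in Piwil1+/-. How the authors counted reads shared by near-identical copies such as Rpl10, Rpl10l and Rpl10-ps3 is not stated, and the levels of both genes are uncertain to that extent.

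The testis paralog Rpl39l stood above its parent in both genotypes, at very low levels of both. Rpl39l (chromosome 16, 10170197 to 10174911) had 1.15 RPKM in Piwil1-/- and 0.863 RPKM in Piwil1+/-, from at least 9 and 7 reads, and passed the minimum of 1 RPKM through Piwil1-/- only. The difference to Rpl39 (chromosome X, 37082518 to 37085222) on the log2 (RPKM + 1) scale was 0.93 in Piwil1-/- and 0.81 in Piwil1+/-. The plain ratio of Rpl39l to Rpl39 was 9.0 in Piwil1-/- (1.86 to 85.6) and 14 in Piwil1+/- (1.80 to 631). Rpl39l differed between genotypes by 1.33-fold (0.442 to 4.21). Rpl39 is among the members whose values near 0 may not hold in the cells. The counting of reads shared by Rpl39l and Rpl39 is not stated either, so the order of paralog and parent is uncertain.

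**Figure D2:**
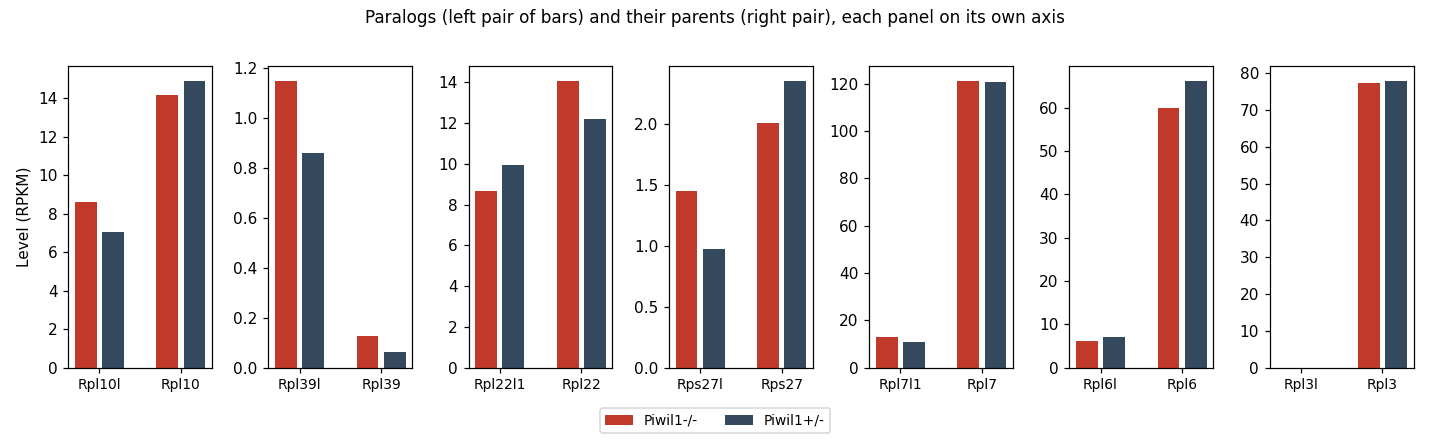
RPKM of each paralog (left pair of bars in a panel) and its parent (right pair) in Piwil1-/- (red) and Piwil1+/- (dark), 1 library each, every panel with its own axis from 0. Rpl39l is the sole paralog above its parent, and Rpl3l is at 0 in both libraries.

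The remaining paralogs were lower than their parents in both libraries. Rpl22l1 had 8.69 RPKM in Piwil1-/- and 9.92 RPKM in Piwil1+/-, and its parent Rpl22 had 14.1 and 12.2 RPKM. The ratio of paralog to parent was 0.617 in Piwil1-/- (0.403 to 0.908) and 0.815 in Piwil1+/- (0.551 to 1.17). Rps27l, known in other cells as a p53 target, had 1.45 RPKM in Piwil1-/- and 0.973 RPKM in Piwil1+/-, and Rps27 had 2.01 and 2.35 RPKM. Their ratio was 0.722 in Piwil1-/- (0.573 to 0.908) and 0.413 in Piwil1+/- (0.321 to 0.529). At the lowest reads that fit, this was the one pair of the 5 with intervals in which those of the 2 libraries did not overlap. True reads may be more and the intervals narrower, so overlap in the other pairs is not settled.

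Paralog and parent were far apart in the other pairs. Rpl7l1 had 13.03 RPKM in Piwil1-/- and 10.9 RPKM in Piwil1+/-, 0.107 and 0.0899 of Rpl7. Rpl6l had 6.12 RPKM in Piwil1-/- and 7.11 RPKM in Piwil1+/-, 0.102 and 0.107 of Rpl6, which had 59.99 and 66.2 RPKM. Rpl3l, which replaces Rpl3 in striated muscle, was listed at 0 RPKM in both libraries. Rpl3, which shapes the peptidyl transferase centre, had 77.2 RPKM in Piwil1-/- and 78.0 RPKM in Piwil1+/-. The 7 paralogs summed to 39.0 RPKM in Piwil1-/- and 36.8 RPKM in Piwil1+/-, against 2710 and 2618 RPKM for the other 75 members.

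The genotype comparison asked whether ribosomal protein mRNAs differ when PIWIL1 is missing. It was made on the difference of log2 (RPKM + 1), Piwil1-/- minus Piwil1+/-, which for genes of low level comes out smaller than the plain fold, over the 77 members with 1 RPKM or more in either library. Rpl38, Rps27l and Rpl39l passed this minimum through Piwil1-/- only, and 5 members failed it in both libraries. No member was 2-fold higher in Piwil1-/-, where 0.231% of all 9951 genes at this minimum were, and none was 2-fold lower, where 1.96% of all genes were (2.19% in either direction). Without replicates these are sizes and not tests. The median difference of the members was 0.03, that of all genes 0.01, and the members ranged from −0.44 to 0.82. By sign 44 of the 77 members were higher in Piwil1-/- and 33 were lower, beside 5092 higher and 4859 lower of all 9951 genes.

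Few members passed smaller thresholds. By at least 1.5-fold, 3 members (3.90%) were higher in Piwil1-/-, Rpl10a, Rpl38 and Rpl36, where 1.42% of all genes were, and 0 were lower, where 5.21% of all genes were (6.62% in either direction). By a threshold of 0.3219 on the log2 (RPKM + 1) scale, given as 0.32 from here on, 5 members (6.49%) were higher, now with Rps3 and Rplp2, where 5.81% of all genes were, and 2 (2.60%) were lower, Rpl28 and Rps28, where 10.3% of all genes were (16.1% in either direction). The other 70 members lay within 0.32 of equal levels.

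Rpl10a was the member with the largest difference. RPL10A is the protein of the mobile L1 stalk beside the exit site for transfer RNA. Rpl10a had 27.2 RPKM in Piwil1-/- and 14.99 RPKM in Piwil1+/-, a difference of 0.82 and a fold of 1.81 (1.69 to 1.94, at least 2266 and 1296 reads). Rps3, which lines the channel where mRNA enters the small subunit, had 69.3 RPKM in Piwil1-/- and 48.7 RPKM in Piwil1+/-, a difference of 0.50 and a fold of 1.42 (1.36 to 1.49). These were the only members with a mean of 10 RPKM or more past 0.32, and no other RefSeq protein-coding gene overlaps either of them. The small nucleolar RNA genes Snord15a and Snord15b lie inside Rps3, and whether their reads add to its level was not tested.

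Members of low level gave the other differences past 0.32. Rpl36 had 3.48 RPKM in Piwil1-/- and 1.84 RPKM in Piwil1+/-, a fold of 1.89 (1.37 to 2.62, at least 111 and 61 reads). Rplp2 had a fold of 1.47 (1.15 to 1.87). Rpl38, which in mouse embryos is needed for translation of Hox mRNAs, had 1.55 RPKM in Piwil1-/- and 0.542 RPKM in Piwil1+/-. Its fold of 2.85 (0.845 to 12.3) came from at least 11 and 4 reads. Rpl29, sixth in rank, had 9.53 RPKM in Piwil1-/- and 7.42 RPKM in Piwil1+/-, a fold of 1.28 in RPKM (1.17 to 1.40) and a difference of 0.3215 on the log2 (RPKM + 1) scale, just inside the threshold.

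On the lower side, Rpl28 had 5.13 RPKM in Piwil1-/- and 7.33 RPKM in Piwil1+/-, a fold of 0.699 (0.532 to 0.916, at least 93 and 138 reads). Rps28, a small protein near the mRNA exit, had 2.32 RPKM in Piwil1-/- and 3.19 RPKM in Piwil1+/-, a fold of 0.728 (0.613 to 0.862). Rps16, whose tail reaches the transfer RNA in the P site, had 5.07 RPKM in Piwil1-/- and 6.37 RPKM in Piwil1+/-, a fold of 0.796 (0.666 to 0.951). Rpl6l followed with a fold of 0.861 (0.767 to 0.966), Rpl22l1 with 0.875 (0.505 to 1.51) and Rps20 with 0.889 (0.726 to 1.09). Rps20 stood highest of these, with 41.0 RPKM in Piwil1-/- and 46.1 RPKM in Piwil1+/-.

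**Figure D3:**
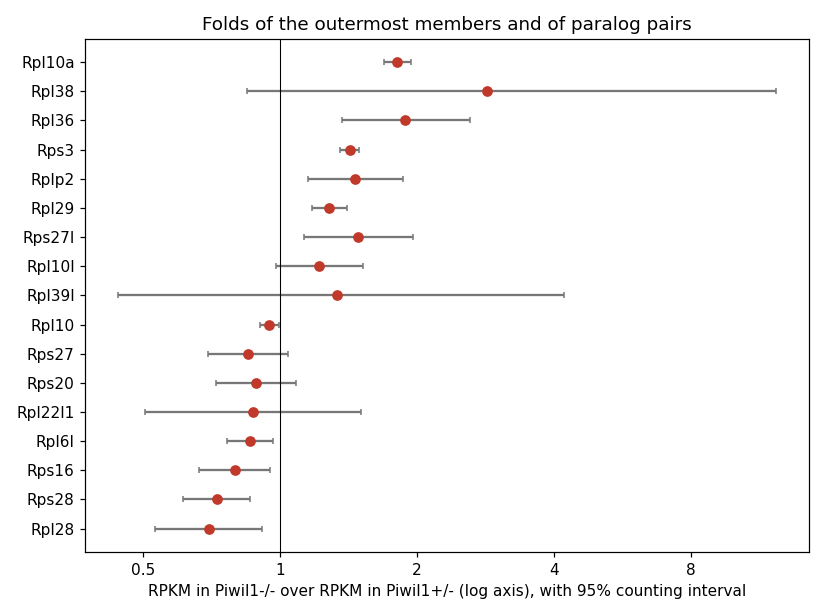
RPKM in Piwil1-/- over RPKM in Piwil1+/- on a log axis, 1 library each, for the members with the 6 highest and 6 lowest differences and for Rpl10l, Rpl10, Rpl39l, Rps27l and Rps27, with bars for the 95% counting interval at the lowest reads that fit. Rpl10a at 1.81 and Rps3 at 1.42 have narrow bars, and the bars of Rpl38 and Rpl39l are wide.

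Differences were smaller among well expressed members. Of the 58 members with a mean of 10 RPKM or more, 2 passed 0.32 in either direction (3.45%), beside 13.4% of the 3791 genes of that level. Of the 19 members between 1 and 10 RPKM, 5 passed it (26.3%), beside 17.8% of 6160 genes. Across the 77 members, level and the size of the difference had a Spearman's rho of −0.50, which describes genes that share both libraries and whose counting error grows as the level falls.

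**Figure D4:**
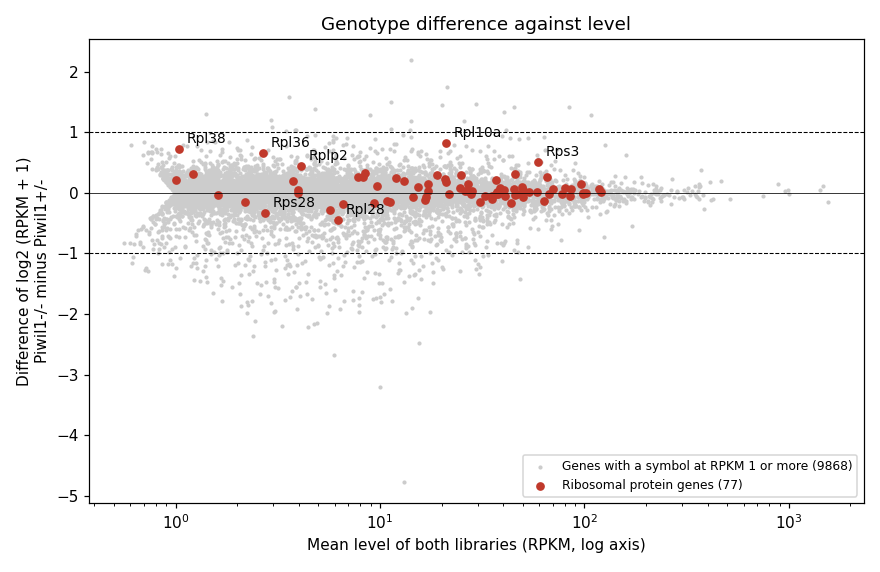
Difference of log2 (RPKM + 1), Piwil1-/- minus Piwil1+/-, against the mean RPKM of both libraries on a log axis, for the 77 ribosomal protein genes (red) and the other genes with a symbol at 1 RPKM or more (grey), with dashed lines at 2-fold. Red points lie between −0.44 and 0.82 and crowd around 0 above 10 RPKM, where Rpl10a and Rps3 stand apart.

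The lowest read numbers that fit could be had for 74 of the 77 members. The counting interval of the fold lay wholly above 1 for 23 of these members (31.1%), as it did for 25.5% of 8973 genes, and wholly below 1 for 8 (10.8%), as it did for 26.5% of genes. In all, 52.02% of genes have an interval that leaves out 1. Among the 23 were Rps27a, a fusion of ubiquitin and a small subunit protein, with 50.7 RPKM in Piwil1-/- and 40.8 RPKM in Piwil1+/- (1.24-fold, 1.17 to 1.32), and Rpl7a, with 71.2 and 59.2 RPKM (1.202-fold, 1.157 to 1.249). Rps27a overlaps the gene Clhc1, at 15.6 RPKM in Piwil1-/- and 14.3 RPKM in Piwil1+/-, and use of strand in counting is not given.

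Pseudogene copies kept out by the rule were set beside their parents. Of 14 such copies in the table, 9 reached 1 RPKM and 4 were at 0 in both libraries. Rps12-ps3 had 25.3 RPKM in Piwil1-/- and 23.0 RPKM in Piwil1+/-, almost the 25.4 and 23.9 RPKM of Rps12. Rpl23a-ps3 had 14.99 RPKM in Piwil1-/- and 16.7 RPKM in Piwil1+/-, beside 15.9 and 17.3 RPKM for Rpl23a. The copies of Rpl7a differed between genotypes as Rpl7a did: by 0.29 for Rpl7a-ps3, 0.22 for Rpl7a-ps5 and 0.26 for Rpl7a. The copy farthest from its parent among the 9 was Rpl27-ps3, at −0.21 (9.03 RPKM in Piwil1-/- and 10.6 RPKM in Piwil1+/-) beside −0.02 for Rpl27. Whether these copies are transcribed or take reads of their parents was not tested.

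Ribosomal proteins whose symbols the rule misses were set beside the members. Rack1, a scaffold on the head of the small subunit that lies next to RPS3, had 71.7 RPKM in Piwil1-/- and 50.4 RPKM in Piwil1+/-, a difference of 0.50. Fau, Rpl36al, Rps3a1 and Rps4x lay between 0.04 and 0.10.

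Genes that build, load or use ribosomes were described alongside. Of 52 ribosome biogenesis factors at 1 RPKM or more, 4 were higher and 2 lower in Piwil1-/- by at least 0.32 on the log2 (RPKM + 1) scale, with a median difference of 0.03. Of all genes at this minimum, 5.81% were higher and 10.3% lower by as much. Dcaf13, a small subunit processome factor, was highest at 0.42 (6.80 RPKM in Piwil1-/- and 4.83 RPKM in Piwil1+/-). Nob1, the nuclease that trims 18S rRNA, was lowest at −0.68 (0.875 RPKM in Piwil1-/- and 2.01 RPKM in Piwil1+/-). Among 6 chaperones that escort single ribosomal proteins none passed 0.32. Bccip was highest at 0.23 and Tsr2, the chaperone of RPS26, lowest at −0.17.

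Median differences of translation factors were likewise near 0. The shares of all genes past 0.32, to set beside the counts here, were 5.81% higher and 10.3% lower. Of 34 initiation factors 0 were higher and 3 lower by at least 0.32, and the median difference was −0.02. Eif3i was highest at 0.19, with 38.7 RPKM in Piwil1-/- and 33.7 RPKM in Piwil1+/-. Eif4g1, the scaffold of cap-dependent initiation, was lowest at −0.45, with 30.7 RPKM in Piwil1-/- and 42.1 RPKM in Piwil1+/-. Of 12 elongation and termination factors 0 were higher and 2 lower, with a median of 0.02. Etf1, which reads stop codons, was lowest at −0.44, with 58.3 RPKM in Piwil1-/- and 79.5 RPKM in Piwil1+/-, and Gspt2 highest at 0.18.

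Other TOP mRNAs were found in both directions. Of 15, 2 were higher by at least 0.32, Rack1 and Nap1l1, and 1 was lower, Eef1d, a guanine nucleotide exchange factor subunit at 32.0 RPKM in Piwil1-/- and 41.7 RPKM in Piwil1+/-. Their median was −0.02, and of all genes 5.81% were higher and 10.3% lower by at least 0.32. None of the 11 regulators of ribosomal protein mRNAs and ribosome rescue factors passed 0.32. Zfp598, which marks collided ribosomes, was highest at 0.25 and Rptor, the mTORC1 subunit, lowest at −0.22. No gene of these lists passed 2-fold on the log2 (RPKM + 1) scale. In plain RPKM, Nob1 was more than 2-fold lower in Piwil1-/- (0.436-fold, counting interval 0.312 to 0.601). Elongating spermatid markers, by contrast, had 5 of 6 genes at 1 RPKM or more at least 2-fold lower in Piwil1-/- and a median of −1.35, and round spermatid markers 2 of 6 and a median of −0.66.

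**Figure D5:**
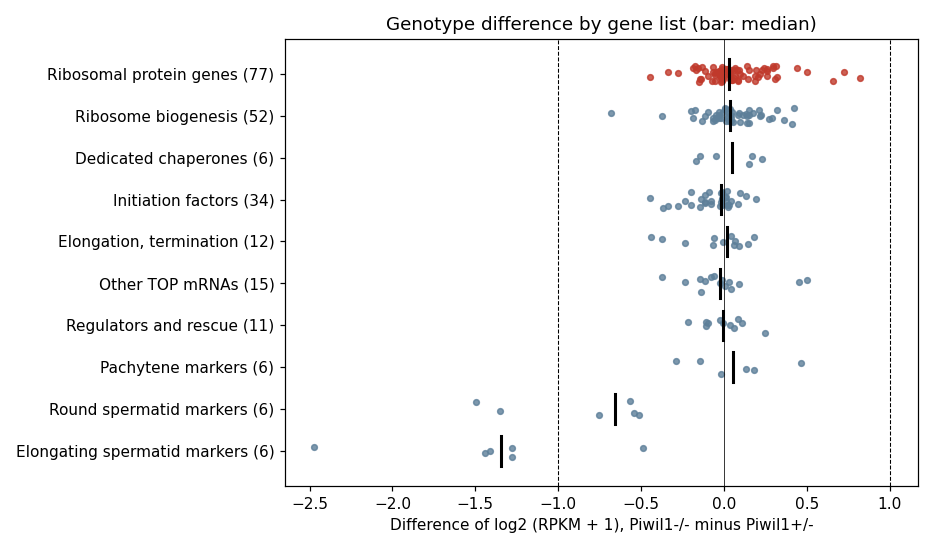
Difference of log2 (RPKM + 1), Piwil1-/- minus Piwil1+/-, 1 library each, for each gene of a list (points) with the list's median (bar), the number of genes in brackets and dashed lines at 2-fold. The ribosomal protein genes centre on 0.03, and the lists of round and elongating spermatid markers lie at −0.66 and −1.35.

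Positions of the members that differed most were looked up last. The 82 members lie on 19 chromosomes, with 14 on chromosome 7 and 8 on chromosome 17. Of the 7 members past 0.32, 6 lie on these chromosomes, and Rpl38 lies on chromosome 11; whether that is more than their share was not tested. Rpl10a lies on chromosome 17 (28328471 to 28331033) with Rpl36 (56610094 to 56614246) and Rps28 (33823036 to 33824562), and the last of these differed in the other direction. Rps3 (99477896 to 99483709), Rplp2 (141447651 to 141451359) and Rpl28 (4792965 to 4794547) are on chromosome 7, again with both directions. Members on autosomes had a median difference of 0.04, and the X-linked Rpl10 and Rpl36a differed by −0.07 and −0.03.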

How the data were processed

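Testis RNA of Piwil1-/- and Piwil1+/- mice was grouped by the genotypes in the labels, 1 library each. The authors deposited RPKM per gene, per the file headers. Bowtie, STAR and the mm10 build are named in the submitters' processing notes; how reads were counted, over which annotation and gene length, and whether by strand, is not given there. Small RNA libraries of the same study were not used here.

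Symbols matched 22444 of 22808 identifiers, and coordinates and promoters are from RefSeq GRCm38.p6. Differences are of log2 (RPKM + 1), for genes at 1 RPKM or more in either library. Whole reads were recovered as the smallest numbers that fit both RPKM values, for 15568 of 16558 genes above 0 in both (94.0%). Totals rest on 14 genes with a RefSeq span under 1500 bases. Recovered lengths were multiples of 3 for 66.7% of genes, where chance gives 33.3%. Intervals are exact (Clopper-Pearson) binomial, at 95%. The method was checked on simulated data. Python 3.11.15 with numpy 2.4.6, pandas 2.3.3 and scipy 1.17.1 was used.

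Members and lists were chosen with earlier results of these data known. Named members are paralogs and parents, the 6 highest and 4 lowest levels, the 6 highest and 6 lowest differences, those past 1.5-fold and those at 0. Of each list the highest and lowest difference is named, except for 1 gene not reported here. Other pseudocounts, minimum levels, scalings and memberships were tried.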

Additional observations from a re-analysis of the deposited data

How the results depend on the processing

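No paired analysis was possible because each genotype has 1 library and no replicate number, and for the same reason no library could be left out. With a pseudocount of 0.1 RPKM, 1 member was at least 2-fold higher in Piwil1-/- (Rpl38), as were 0.683% of all genes, and 8 (10.4%) were higher by at least 0.32 (log2), as were 8.95% of all genes. Over the 59 members at 10 RPKM or more, 1 was at least 1.5-fold higher (1.69%; all genes 1.56%), 2 were higher by at least 0.32 (3.39%; all genes 5.33%) and 0 lower (all genes 9.73%). With the ribosomal proteins that the symbol rule misses, the summed ratio was 1.042, beside 1.035 for the members. The median difference stayed between 0.02 and 0.04 under every alternative. Rescaling Piwil1-/- by 0.995 or 0.994 turned the sign of 1 of 28 named members, Rpl7, to −0.0014 and −0.0032. The pseudocount of 0.1 RPKM widened the difference of Rpl39l over Rpl39 to 2.46 in Piwil1-/- and 2.57 in Piwil1+/-. Read numbers are lower limits, so the depth behind Rpl38, Rpl39, Rpl39l, Rps21 and Rps29, the members with the lowest numbers, is not known exactly.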

Other observations

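Genes with an Rps6k symbol, named after S6 kinases, encode no ribosomal proteins and were looked at after the values above were seen. Of 10 such genes 7 reached 1 RPKM. By at least 0.32 on the log2 (RPKM + 1) scale, 1 was lower in Piwil1-/- (10.3% of all genes were) and 0 were higher (5.81% of all genes). The median difference of log2 (RPKM + 1) was 0.11. The lower one was Rps6ka1, with 1.37 RPKM in Piwil1-/- and 2.24 RPKM in Piwil1+/- (0.610-fold, counting interval 0.526 to 0.706, at least 294 and 500 reads). Rps6kb1, the main S6 kinase of the mTOR pathway, had 7.15 RPKM in Piwil1-/- and 6.54 RPKM in Piwil1+/-.

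Introns of ribosomal protein genes often hold small nucleolar RNA genes, whose products guide modification of ribosomal RNA. In RefSeq 29 members hold or overlap one. The 28 hosts at 1 RPKM or more had a median of 39.6 RPKM in Piwil1-/- and 37.4 RPKM in Piwil1+/-. The 49 other members at that minimum had medians of 22.5 and 19.1 RPKM. The median difference between genotypes was 0.02 over the 28 hosts and 0.04 over the 49 other members at 1 RPKM or more. Whether reads of the small RNAs add to the level of a host was not tested.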
